A study of Luscinia megarhynchos and Luscinia luscinia with 4 samples.

Results

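The genes described here are the named genes of the germline-restricted chromosome (GRC) whose messenger RNA was detected in the gonads of the common nightingale (*Luscinia megarhynchos*) and not in those of the thrush nightingale (*L. luscinia*). The deposited table has 799 rows, each a coding sequence of the collared flycatcher (*Ficedula albicollis*) that matched GRC sequence, and 527 of them carry a gene symbol other than a LOC number. Members were selected on the deposited FPKM. FPKM is by its usual definition the number of fragments of a gene scaled by gene length and library size. Whether the deposited values follow that definition was not tested. The rule took named rows with an FPKM above 0 in the ovary or the testis of *L. megarhynchos* and of 0 in both tissues of *L. luscinia*. It found 119 rows, 22.6% of the 527 named rows, while the reverse held for 66 rows (12.5%). Of the 119, 4 (SYCE3, PCDH7, SEMA7A and POLD2) were left out by name because the rule excludes 17 symbols. The remaining 115 rows are the members, with 113 different symbols since ELAVL4 and CHD5 have more than 1 row each. The study counted as GRC genes only those with a minimum share of their coding sequence present, whereas the table is longer, and members can be short fragments that the study did not count. How much of each member is present was not analysed here. Since members were chosen by these expression values, their presence in one species and not in the other is a description and not a result.

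The study sequenced messenger RNA from 4 gonads, 1 ovary and 1 testis of each species, and each library came from a single wild adult bird caught outside the zone where the species meet. The *L. megarhynchos* ovary came from the female that also gave the reference genome of the somatic chromosomes, and the testis came from a male. The *L. luscinia* ovary and testis were obtained in the same way. No bird received a treatment, and no library has a replicate, so that no test across birds could be made and no p-value is given. In *L. megarhynchos*, 198 rows were above 0 in the ovary and 183 in the testis, against 140 and 135 rows in the same tissues of *L. luscinia*. The total number of reads per library is not in the table. The 27 marker genes looked up were those of oocytes, follicle cells, Sertoli cells, male germ cells and germ cells of both sexes. Only DMRT1, a gene of the male pathway known from Sertoli cells, is among the rows, because the table lists the GRC alone. It had 0.267 in the ovary of *L. megarhynchos* and 0.436 in that of *L. luscinia*, and was listed at 0 in both testes. A single GRC row did not allow the tissue labels to be checked against the data.

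The GRC is an additional chromosome that songbirds carry in their germ cells and lack in their somatic cells. It is passed on mainly by the mother and is ejected from male germ cells during meiosis, and most of its genes are copies of genes on the ordinary (A) chromosomes, to which many are still very similar. A gonad is a mixture of germ cells with a GRC and somatic cells without one. In bulk RNA of a whole gonad, fewer cells with a GRC and less RNA per cell cannot be told apart. A value of 0 in *L. luscinia* likewise does not tell whether a gene is missing from that GRC, missing from its assembly or not transcribed. Reads had to map uniquely to GRC exons, and the part that reads from near-identical A-chromosomal copies may have in any value was not tested.

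PGPEP1L is the member for which the study designed a pair of primers on its *L. megarhynchos* GRC copy, and the primers are shown because they are the stretches of a member that the sources used here print as sequence. Both are written 5′ to 3′, in lower case throughout since no base was singled out:
PGPEP1L forward: cttctgggtgaaaatcataag
PGPEP1L reverse: gctctgcagccactggtg
The forward primer has 21 bases and the reverse primer 18 bases. PGPEP1L encodes a relative of pyroglutamyl-peptidase I, an enzyme that removes pyroglutamate from the start of peptides. Its FPKM was 0.0251 in the *L. megarhynchos* ovary and was listed at 0 in the testis. The study reports that PCR with these primers found the gene on the GRC of both species.

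The members were low in most cases, and they differed in the tissue where they were detected. Of the 115 members, 50 (43.5%) were above 0 in the ovary alone, 31 (27.0%) in both tissues and 34 (29.6%) in the testis alone. Over all 267 rows above 0 in *L. megarhynchos* the shares were 31.5%, 42.7% and 25.8% in the same order. With the symbols left out by name set aside, 17 named rows were above 0 in both species. Of these, 4 were detected in the *L. megarhynchos* ovary alone, 12 in both of its tissues and 1 in its testis alone. In the *L. megarhynchos* ovary, 81 members were above 0, with a median FPKM of 0.00422, and 50 of them were below 0.01. In the *L. megarhynchos* testis, 65 members were above 0, with a median FPKM of 0.00272, and 44 of them were below 0.01. The medians over all rows above 0 were 0.0169 in the same ovary and 0.0237 in the same testis. Only 3 members reached an FPKM of 1 in either tissue (2.61% of the members), namely SMU1, CHD5 and BTF3, against 15.4% of the 267 rows. The rule required a value of 0 in *L. luscinia*, and whether this favours low rows was not tested. Nothing is read from this difference.

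**Figure D1:**
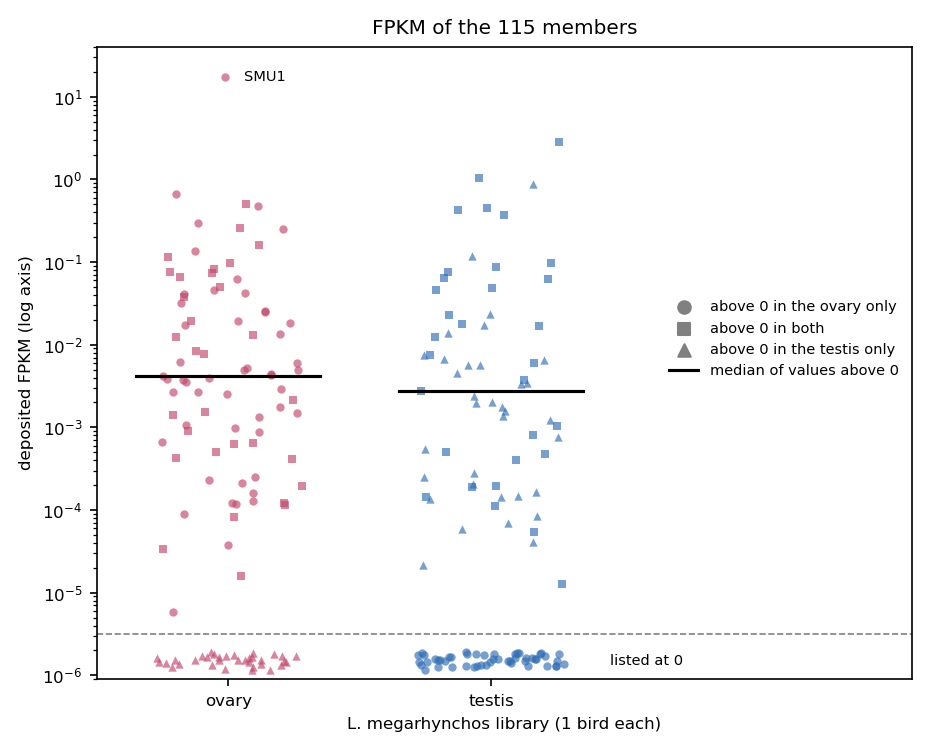
Deposited FPKM (log axis) of each of the 115 members in the *L. megarhynchos* ovary (left) and testis (right), 1 bird each, with marker shapes for the tissues in which a member was above 0 and black lines at the median of the values above 0. The medians lie at 0.00422 in the ovary and 0.00272 in the testis, SMU1 stands above every other member at 17.1 in the ovary, and members listed at 0 are spread below the dashed line.

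FPKM holds a factor for the length of each gene, which the table does not give, and it need not measure how many reads lie behind a value. The factor is the same in both tissues of a species and cancels in the ratio of ovary to testis. These ratios are ratios of whole reads divided by the ratio of the library totals, and 27 of them gave, within rounding, a single ratio of library totals of 1.63 (ovary over testis) in *L. megarhynchos*. With it, the lowest whole reads that give each ratio were found for 30 of the 31 members above 0 in both tissues. Given that ratio, the true reads are these or a multiple of them, so that each pair is a minimum. Fractions of smaller whole numbers gave a ratio of library totals of 0.814 instead. With it, the lowest reads of each member with a pair changed in 1 tissue. Examples are 12 ovary reads for COL4A5, 25 for GATAD2A and 19 for AEBP1. All minimum reads given below are those at the ratio of 1.63. The log2 ratios themselves do not depend on the ratio of library totals. FRY, with an FPKM of only 0.000646 in the ovary, rests on at least 39 ovary reads. BTF3, with 0.257 in the ovary, needs as few as 2. At the lowest reads, 1 ovary read stands for at most 0.129 in BTF3 and at most 7.86e-06 in KMT2D. Under the usual definition of FPKM, so low a value for 1 read would need a very large product of gene length and library total. Neither was available here, so whether the deposited values follow that definition was not tested. The order of FPKM between genes need not follow their number of reads, which is known only as a minimum. Levels and ranks are set beside each other only as deposited. Exact Clopper-Pearson 95% intervals of the log2 ratio were computed from the lowest reads. They cover counting error and not the differences between birds, they would narrow if the true reads were a multiple, and reads copied by PCR are not independent molecules.

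Among the 31 members above 0 in both tissues, 7 were at least 2-fold higher in the ovary (26.3% of all 114 rows above 0 in both tissues were) and 15 were at least 2-fold lower in the ovary (48.2% of all such rows were). The other 9 differed by less than 2-fold. The median log2 ratio of ovary to testis was −0.70 for the members and −0.70 for all 114 rows. This is the value that 1 read in each tissue gives. The median was 0.62 over 12 named rows detected in both tissues and both species. That set leaves out the symbols excluded by name, which the 114 rows include. The median was −2.33 over the 57 LOC rows above 0 in both tissues. The counting interval lay above 0 for 5 members (22.3% of 112 rows with reads) and below 0 for 6 members (36.6% of the rows), and it spanned 0 for 19 members. With the ratio of library totals of 0.814, 4 lay above 0 and 7 below it, since the interval of AEBP1 then spanned 0 (−0.06 to 2.30) and that of FAM3C lay below 0 (−8.46 to −0.21). The lowest reads were a single read in the ovary for 9 members and a single read in the testis for 6 members. In 17 members they summed to 10 or more.

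**Figure D2:**
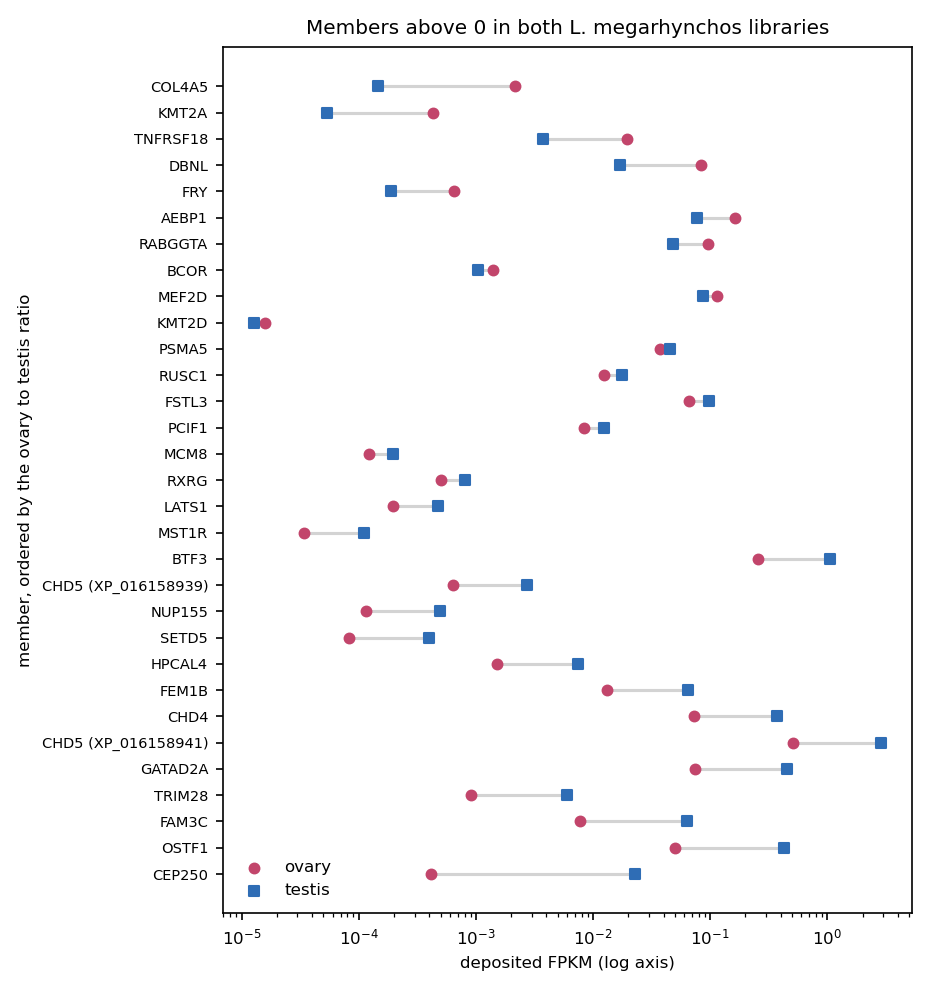
Deposited FPKM (log axis) in the *L. megarhynchos* ovary (circles) and testis (squares) of the 31 members above 0 in both, ordered by the ratio of ovary to testis, 1 library per tissue. CEP250 at the bottom had 0.000416 in the ovary and 0.0230 in the testis, and COL4A5 at the top had 0.00215 in the ovary and 0.000146 in the testis.

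Genes of chromatin and transcription made up the largest list of members. A list was assembled from symbols alone, so that it holds any gene whose name fits a pattern and misses genes whose name does not. The share of a list is therefore that of the matched symbols and not of every gene with that function. Of 33 named rows of this list in the table, 15 were members (45.5%, against 21.8% of all named rows), 4 were above 0 in both species and 2 in *L. luscinia* alone. For every list, counts and shares above 0 in both species or in *L. luscinia* alone set aside the symbols left out by name. In *L. megarhynchos*, 20 of the 33 rows were above 0, against 151 of all 527 named rows, and 115 of those 151 were members. The shares of named rows thus also depend on how many rows were detected, and nothing is read from them for any list. Of the 15 members, 9 were above 0 in both tissues, 3 in the ovary alone and 3 in the testis alone. At least 2-fold differences were found for 7 of the 9, with 1 higher and 6 lower in the ovary. Over all 114 rows above 0 in both tissues, 26.3% were at least 2-fold higher and 48.2% at least 2-fold lower in the ovary. Among the 6 lower rows, the counting intervals of BTF3 and SETD5 spanned 0, and 1 CHD5 row had no interval. The 15 rows carry 14 symbols, since CHD5 is counted by row, and both of its rows are among the 6.

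The highest of the minimum reads were found for subunits of the nucleosome remodelling and deacetylase complex, which moves nucleosomes and removes acetyl groups from histones. GATAD2A, a scaffold subunit of the complex, had an FPKM of 0.0749 in the ovary and 0.456 in the testis. It rests on at least 50 ovary and 187 testis reads, and its log2 ratio was −2.61 (95% counting interval −3.09 to −2.15). CHD4, the remodelling ATPase of the complex, had 0.0729 in the ovary and 0.375 in the testis. Its ratio rests on at least 45 ovary and 142 testis reads and was −2.36 on the log2 scale (−2.88 to −1.87). Both were lower in this ovary than in this testis by more than counting error.

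CHD5, a related ATPase that is known in mammals from neurons and from maturing sperm cells, has a pair of rows among the members. The row of XP_016158941 had 0.510 in the ovary and 2.86 in the testis, the highest testis value of any member and rank 15 of the 183 rows above 0 in that library. It was 5.60-fold lower in the ovary, and no small set of whole reads fitted its ratio, so it has neither minimum reads nor an interval. The row of XP_016158939 had 0.000637 in the ovary and 0.00272 in the testis, with at least 8 ovary and 21 testis reads and a log2 ratio of −2.10 (−3.48 to −0.86). CHD4 and CHD5 are related in sequence, and only uniquely mapped reads were counted, so that reads fitting more than 1 of them equally well would be missing from these values.

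Histone methyltransferases of the KMT2 family were detected at the low end of the FPKM range. KMT2A, which methylates lysine 4 of histone H3, had 0.000428 in the ovary and 5.36e-05 in the testis. At least 13 ovary reads stand against 1 testis read, and it was 7.98-fold higher in the ovary (log2 interval 0.26 to 8.41). KMT2D, an enhancer-bound member of the same family, had 1.57e-05 in the ovary and 1.28e-05 in the testis, from as few as 2 ovary reads and 1 testis read. SETD5, a SET-domain protein, had 8.19e-05 in the ovary and 0.000400 in the testis, from as few as 1 ovary and 3 testis reads. The interval lay above 0 for KMT2A and spanned 0 for KMT2D and SETD5.

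BTF3, the beta subunit of the complex that binds nascent proteins at the ribosome and once described as a basal transcription factor, had 0.257 in the ovary and 1.05 in the testis. Only 2 ovary and 5 testis reads are needed for this ratio, and its interval of −5.42 to 0.59 spanned 0. MEF2D, a transcription factor of muscle and neuron differentiation, had 0.115 in the ovary and 0.0877 in the testis (log2 ratio 0.40, −0.99 to 1.93). Neither gene differed between the tissues beyond counting error at its lowest reads.

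FOXN2, a forkhead transcription factor, was found in the ovary alone with an FPKM of 0.471, the fourth highest ovary value among the members. GLYR1, a protein of active chromatin, had 0.0194 and the zinc-finger gene ZNF704 had 0.00621 in the ovary, and both were listed at 0 in the testis. In the testis alone, the zinc-finger gene ZNF565 had 0.120, ELL2, a subunit of a complex that speeds up RNA polymerase II, had 0.0237, and ZNF469 had 0.000209. These 6 rows have no ratio, because a value listed at 0 gives no number of reads to set against.

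Genes of RNA binding and splicing had 6 members among 20 named rows, with 1 above 0 in both species, 3 in *L. luscinia* alone, 7 left out by the rule and the other 3 at 0 throughout. Of the 6 members, 5 were above 0 in the ovary alone, against 43.5% of all members, and 1 in the testis alone. The 6 rows carry 5 symbols, since ELAVL4 is counted by row among those of the ovary alone. SMU1, a factor needed by the spliceosome to become active, reached 17.1 FPKM in the *L. megarhynchos* ovary and was listed at 0 in the testis. It ranked 7 among the 198 rows above 0 in that ovary and first among the members, and the next member, PSMD4, had 0.665. No other member reached an FPKM of 1 in the ovary. The reads behind it could not be bounded, since it has no value in the testis.

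The RNA-binding protein ELAVL4, which stabilises messenger RNAs in neurons of vertebrates, had ovary values of 0.0462 (XP_005050070) and 0.0410 (XP_016155843). ELAVL2, of the same family, had 0.00290 and SF3B2, a subunit of the U2 small nuclear ribonucleoprotein, had 0.00397 in the ovary. All of these were listed at 0 in the testis. RBM20, a splicing regulator known from heart muscle, had 0.000137 in the testis and was listed at 0 in the ovary.

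Genes of ubiquitin and the proteasome had 7 members among 17 named rows (41.2%), with none above 0 in both species and 3 in *L. luscinia* alone. They comprised 3 proteasome subunits and 4 genes of ubiquitin ligases or related proteins. PSMD4, a ubiquitin receptor of the regulatory particle, had 0.665 in the ovary, and PSMD8, another subunit of that particle, had 0.00354. Both were listed at 0 in the testis. PSMA5, a subunit of the core particle, had 0.0373 in the ovary and 0.0456 in the testis, from as few as 4 ovary and 3 testis reads (log2 ratio −0.29, −2.85 to 2.48). The proteasome genes were thus not of one pattern.

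FEM1B, which selects substrates for a cullin ligase, had 0.0132 in the ovary and 0.0645 in the testis. TRIM28, a corepressor that silences endogenous retroviruses in mammals, had 0.000915 in the ovary and 0.00596 in the testis. Each was at least 2-fold lower in the ovary, yet each needs only 1 ovary read, and the log2 intervals, which reached up to 1.35 for FEM1B and 0.63 for TRIM28, spanned 0. TRIM24, a reader of histone marks, had 0.00440 in the ovary alone, and the ligase UBE3B had 0.00195 in the testis alone.

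Genes of G proteins, kinases and phosphatases had 6 members among 40 named rows (15%, against 21.8% of all named rows). A further 12 rows were above 0 in *L. luscinia* alone (30%, against 11.95% of all named rows), and 3 in both species. Members that are kinases but fit no pattern, such as LATS1 and MST1R, are outside this list. Neither share therefore covers all kinase genes, and nothing is read from their difference. The G protein alpha subunit GNAI3, which inhibits adenylyl cyclase, had 0.250 in the ovary, and GNAT2, the alpha subunit of cone transducin in the retina, had 0.0317. MAPK1IP1L, which has a kinase in its name but is not one, had 0.0182, the protein kinase C gene PRKCD had 0.0173, and the receptor-type phosphatase PTPRN2 had 0.00498 in the ovary. All 5 were listed at 0 in the testis. PPP1R42, a regulatory subunit of protein phosphatase 1 known from the mouse testis, had 0.00337 in the testis and was listed at 0 in the ovary.

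**Figure D3:**
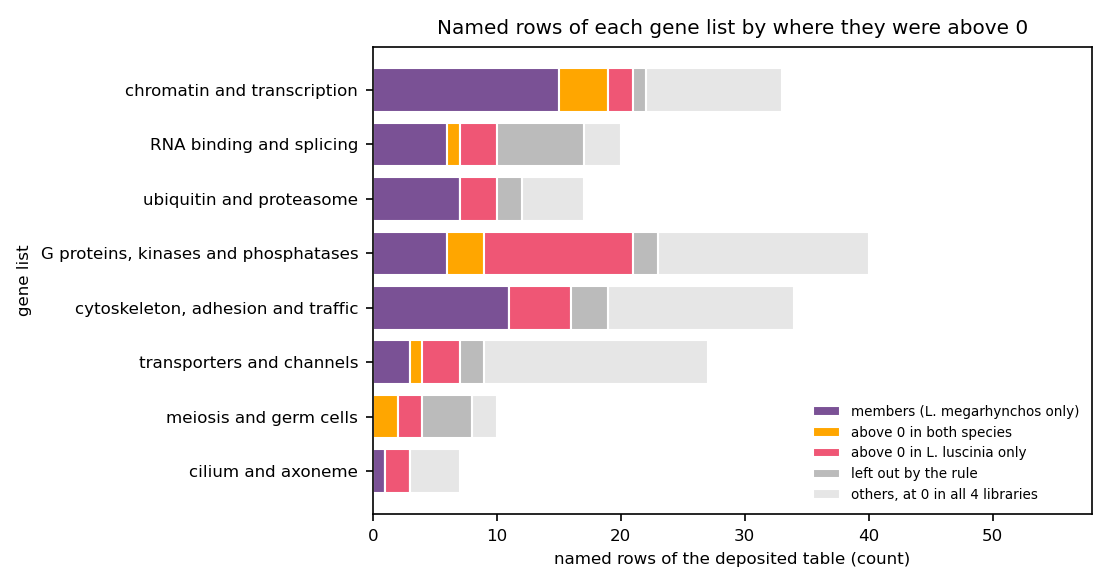
Number of named rows of the deposited table in each of 8 gene lists (bars from the left: members, rows above 0 in both species, rows above 0 in *L. luscinia* alone, rows left out by the rule and others at 0 in all 4 libraries). The lists were assembled from symbols alone and do not hold every gene of a function. Members were 15 of 33 rows for chromatin and transcription, 6 of 40 for G proteins, kinases and phosphatases, and none of 10 for meiosis and germ cells. In the last of these lists, 4 rows were left out by name.

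Genes of the cytoskeleton, adhesion and traffic had 11 members among 34 named rows (32.4%), with 5 rows above 0 in *L. luscinia* alone and none in both species. Of the 11, 4 were above 0 in the ovary alone, 3 in both tissues and 4 in the testis alone. COL4A5, a chain of the collagen of basement membranes, had 0.00215 in the ovary and 0.000146 in the testis. This was 14.7-fold higher in the ovary, the largest such ratio among the members, and rests on at least 24 ovary reads against 1 testis read (log2 ratio 3.88, 1.27 to 9.24). RABGGTA, a subunit of the enzyme that attaches lipid anchors to Rab proteins, had 0.0966 in the ovary and 0.0479 in the testis (log2 ratio 1.01, −0.25 to 2.48). OSTF1, an SH3-domain protein first described from osteoclasts, had 0.0497 in the ovary and 0.431 in the testis. Its ratio of −3.12 on the log2 scale (−5.54 to −1.31) rests on at least 3 ovary and 16 testis reads. The intervals of COL4A5 and OSTF1 lay on opposite sides of 0, and that of RABGGTA spanned 0.

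Among those found in 1 tissue, NECTIN3, an adhesion molecule of cell junctions, had 0.300 in the ovary, the spectrin-binding gene ADD2 had 0.000994 and the cadherin CDH15 had 0.000871. The glypican GPC5, a heparan sulphate proteoglycan, had 0.0174 in the testis, the integrin chain ITGA3 had 0.000767, RAB11FIP1, a partner of Rab11 in recycling endosomes, had 0.000165 and the protocadherin PCDH15 had 8.46e-05. Each was listed at 0 in the other tissue.

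The list of transporters and channels had 3 members among 27 named rows (11.1%). Members such as the channel gene HCN3 fit no pattern and are outside it, so the share does not cover all channel genes. The zinc importer SLC39A10 had 0.135 in the ovary, the ninth highest ovary value of the members, and the calcium-activated potassium channel KCNN2 had 0.000121 in the ovary. ATP6V0A4, a subunit of the vacuolar proton pump, had 0.000145 in the testis. Of 7 named rows for cilium and axoneme, ZMYND10, which is needed to assemble the dynein arms of motile cilia, was a member with 0.0627 in the ovary and 0 in the testis. None of the 10 named rows for meiosis and germ cells was a member, with 2 above 0 in both species, 2 in *L. luscinia* alone and 4 left out by name. SYCE3, a synaptonemal complex gene, met the expression rule and was left out by name. That list does not hold every gene of meiosis or germ cells. MCM8, a helicase of recombination repair that is required for fertility in mice, is an example of a member outside it. It had 0.000121 in the ovary and 0.000197 in the testis, the ratio that 1 read in each tissue gives.

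The other 66 members belong to no list, with 27 above 0 in the ovary alone, 16 in both tissues and 23 in the testis alone. The lowest ovary to testis ratio of all members was that of CEP250, a linker protein of centrosomes. It had 0.000416 in the ovary and 0.0230 in the testis, 55.4-fold lower in the ovary, with at least 1 ovary and 34 testis reads (log2 ratio −5.79, −11.14 to −3.22). NUP155, a protein of the nuclear pore, had 0.000115 in the ovary and 0.000498 in the testis (log2 ratio −2.12, −4.67 to −0.06, from at least 3 ovary and 8 testis reads). The interval of CEP250 stayed well below 0, and that of NUP155 ended just below it.

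Higher in the ovary were FRY, TNFRSF18 and AEBP1. FRY, a large protein that binds microtubules, had 0.000646 in the ovary and 0.000189 in the testis (log2 ratio 1.77, 0.60 to 3.18, from at least 39 ovary and 7 testis reads). TNFRSF18, a receptor of the tumour necrosis factor family known from T cells, had 0.0194 in the ovary and 0.00371 in the testis (2.38, 0.31 to 5.54, from at least 17 ovary and 2 testis reads). AEBP1, a protein of the extracellular matrix, had 0.163 in the ovary and 0.0768 in the testis (1.09, 0.09 to 2.20, from at least 38 ovary and 11 testis reads). With COL4A5 and KMT2A these are the 5 members whose interval lay above 0. DBNL, an actin-binding adaptor, had 0.0836 in the ovary and 0.0170 in the testis (2.30, −0.60 to 7.77, from at least 8 ovary reads and 1 testis read), and its interval spanned 0.

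FSTL3, a secreted inhibitor of activin and myostatin, differed by less than 2-fold, and its interval was among the narrower ones. It had 0.0664 in the ovary and 0.0970 in the testis, from at least 39 ovary and 35 testis reads (log2 ratio −0.55, −1.24 to 0.15). PCIF1, the enzyme that methylates the first adenosine after the cap of messenger RNAs, had 0.00834 in the ovary and 0.0124 in the testis (−0.58, −1.89 to 0.74). RUSC1, a signalling adaptor, had 0.0125 in the ovary and 0.0177 in the testis (−0.51, −2.17 to 1.19). BCOR, a corepressor of the polycomb group, had 0.00141 in the ovary and 0.00104 in the testis (0.43, −1.21 to 2.31). All 4 intervals spanned 0, and at these reads differences of up to the stated bounds could not be detected.

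The remaining members above 0 in both tissues need as few as 2 to 6 reads over both tissues. FAM3C, a secreted cytokine-like protein, had 0.00772 in the ovary and 0.0628 in the testis. HPCAL4, a neuronal calcium sensor, had 0.00152 in the ovary and 0.00742 in the testis. LATS1, a kinase of the Hippo pathway, had 0.000194 in the ovary and 0.000475 in the testis. These were all lower in the ovary, as was the receptor kinase MST1R, with 3.40e-05 in the ovary and 0.000111 in the testis. The retinoid receptor RXRG had 0.000501 in the ovary and 0.000815 in the testis, the ratio that 1 read in each tissue gives. Every interval of these 5 spanned 0.

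**Figure D4:**
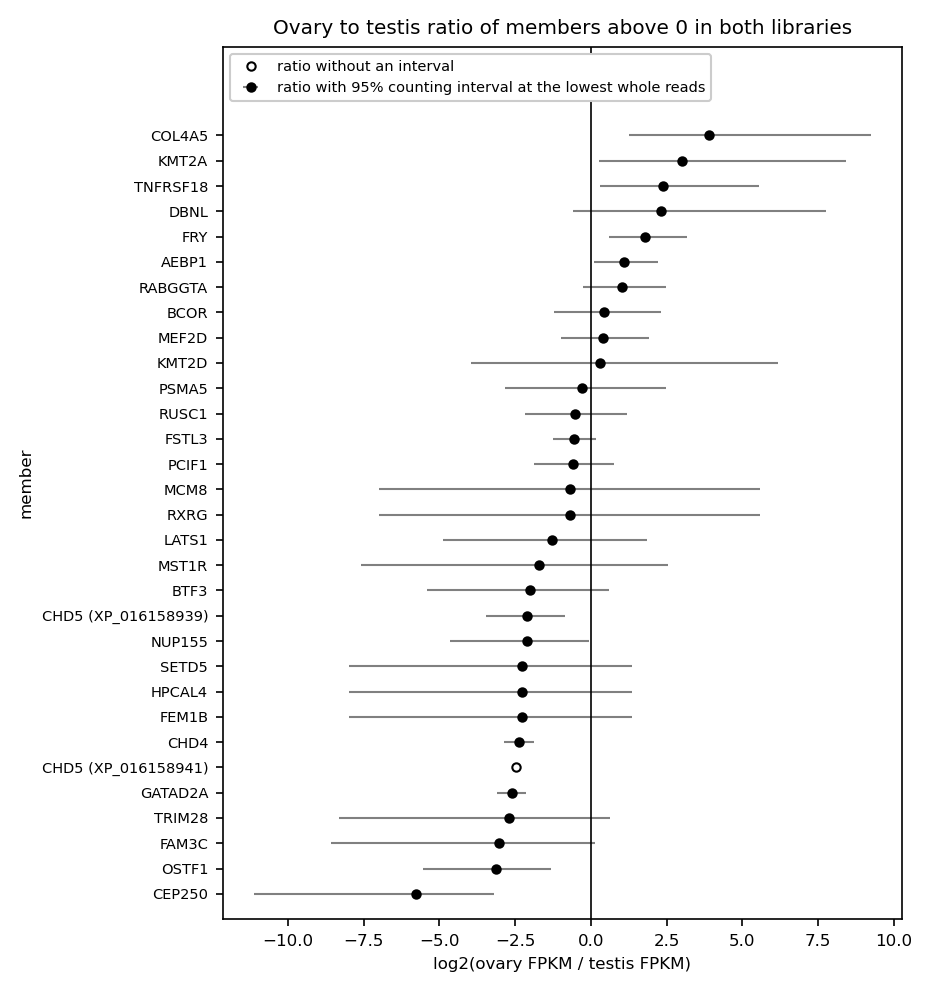
Log2 ratio of ovary FPKM to testis FPKM in *L. megarhynchos* for the 31 members above 0 in both tissues, with the exact 95% counting interval at the lowest whole reads (bars), which covers neither birds nor libraries. The interval lies above 0 for 5 members and below 0 for 6, GATAD2A and CHD4 have the narrowest bars, and the open circle is the CHD5 row without an interval.

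THRSP, a regulator of lipid synthesis in the liver of mammals, was the highest member in the testis alone, with an FPKM of 0.886 and rank 26 of the 183 rows above 0 in that testis. It was listed at 0 in the ovary. A further 23 members above 0 in the ovary alone lie between 3.72e-05 and 0.0424, with a median of 0.00176. The highest of them is ERV3-1, an envelope gene of an endogenous retrovirus, followed by LYRM4, which acts in iron-sulphur cluster assembly, with 0.0258, and by PGPEP1L. They also include BMPR1B, a receptor of bone morphogenetic proteins that sets ovulation rate in sheep, with 0.00382. A further 18 members above 0 in the testis alone lie between 4.09e-05 and 0.0137, with a median of 0.00207. The highest of them is the scaffold gene GRASP, followed by CD8B, a coreceptor of T cells, with 0.00752.

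At the threshold of the rule, the lowest values inside it were those of SYNE1, a protein that links nuclei to the cytoskeleton, with 5.80e-06 in the ovary, of KMT2D, and of FREM2, an extracellular matrix protein, with 2.16e-05 in the testis. Just outside it, the lipid kinase PIK3C2G had 0.00106 in the testis of *L. megarhynchos*, against 0.000390 in that of *L. luscinia*. MSH6, a mismatch repair gene, had 0.269 in the ovary of *L. megarhynchos*, against 0.000857 in that of *L. luscinia*. AGGF1 had 0.348 and 0.199 in the ovary and testis of *L. megarhynchos*, against 0.00178 and 0.00130 in those of *L. luscinia*.

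By symbol rather than by row, the label did not hold for every member. FOXN2, ELAVL4 and GLYR1 each have another row above 0 in *L. luscinia*. A different FOXN2 row had 0.278 in the *L. luscinia* ovary and was listed at 0 in both *L. megarhynchos* tissues. A further ELAVL4 row had 0.160 in the ovary of *L. megarhynchos*, against 0.0877 in that of *L. luscinia*. Another GLYR1 row had 0.462 in the *L. megarhynchos* ovary and 0.0198 in its testis, against 0.0115 in the *L. luscinia* ovary. For these 3 genes the row was restricted to *L. megarhynchos* and the symbol was not, and 110 members remain when rows of a symbol are summed.

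The rule did not use position. The identifiers number the coding sequences in the order of the flycatcher annotation, and rows of different symbols on the same flycatcher sequence that lie within 15 numbers of each other were taken as neighbours. They are neighbours in the flycatcher, not necessarily on the GRC. Members were found on 37 flycatcher sequences, and 47 of 115 (40.9%) had a named neighbour in the table, against 49.5% of the 527 named rows. Among the members themselves, 17 (14.8%) fell into 8 clusters. A like share was not computed for other named rows, so the number of clusters is a description. GNAT2, GNAI3 and PSMA5 (numbers 22952, 22953 and 22959) formed the one cluster with 3 members, with GNAT2 and GNAI3 found in the ovary alone and PSMA5 in both tissues. AEBP1 and DBNL (21523 and 21525), both at least 2-fold higher in the ovary, lie beside POLD2 (21522), a DNA polymerase subunit left out by the rule. POLD2 had an FPKM of 4.25 in the ovary and 16.2 in the testis, 3.81-fold lower in the ovary, and was at 0 in *L. luscinia* as well.

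The neighbours in the other clusters mostly differed in the tissue where they were found. For members detected in a single tissue the reads could not be bounded, so this need not be a difference between tissues. GPC5 in the testis lay beside NDFIP2, an adaptor of ubiquitin ligases, with 0.00500 in the ovary. NVL, a ribosome assembly ATPase with 0.00204 in the testis, lay beside SUSD4 with 0.0134 in the ovary. AZIN2, an antizyme inhibitor with 0.00156 in the testis alone, lay beside HPCAL4. HCN3, a pacemaker channel gene with 0.000253 in the ovary alone, lay beside RUSC1, and THOP1, a peptidase with 0.000251 in the testis alone, beside GATAD2A. ZMYND10 and PRKCD were both found in the ovary alone.

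Some members lie beside genes above 0 in both species, of which FBXO11 and IGF1R are among the symbols left out by name. FOXN2 stands near FBXO11, a ubiquitin ligase subunit with 19.2 in the *L. megarhynchos* ovary, and near MSH6. PGPEP1L (15359) follows IGF1R (15358), the receptor of insulin-like growth factors, which had 3.82 in the *L. megarhynchos* ovary and was listed at 0 in its testis. FEM1B stands near PIAS1, a SUMO ligase with 11.6 in the *L. megarhynchos* ovary and 0.0639 in its testis. PGPEP1L was found in the ovary alone, as IGF1R was within *L. megarhynchos*, while FEM1B was lower in the ovary and PIAS1 higher.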

How the data were processed

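The authors trimmed 150 bp single-end reads of stranded poly(A) libraries with Trimmomatic 0.39, mapped them by STAR 2.7.9a against the combined somatic and GRC assemblies of each species, and retained unique alignments to GRC exons. How exons were counted, and whether by strand, is not given in the sources used here. They deposited FPKM with decimal commas, 1 column per library, and 0 of the columns per sample were left unused. Per the study's notes, FPKM used the length of each gene on the GRC, and these lengths were not used here. The same notes advise against comparing FPKM between datasets, because the share of cells with a GRC is unknown. The ovary to testis ratios given here are such comparisons. From the deposited values, members, counts, ratios without a pseudocount, lowest whole reads and counting intervals were computed with scipy 1.17.1, pandas 2.3.3 and numpy 2.4.6 in Python 3.11.15. The search for the ratio of library totals used fractions of whole numbers up to 5. Simple multiples and fractions of the ratio found were then compared, and the one leaving the smallest whole reads was kept. The search was tested on simulated data (114 rows), where it recovered the ratio in 3 of 3 simulations. No pooling or test was possible with 1 library per group. The members and lists were chosen with earlier results of these data known. Genes named are the 12 highest members in each *L. megarhynchos* library, all members above 0 in both tissues, on a list or with a member neighbour, and the 3 lowest (74 in all, 1 of which is not reported here), with a few others named after their values were seen (ERV3-1, LYRM4, PGPEP1L, BMPR1B, GRASP and CD8B). Alternatives were a minimum FPKM, summed symbols, pseudocounts, centring, a 4-fold threshold, a minimum of reads and other distances between neighbours.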

Additional observations from a re-analysis of the deposited data

How the results depend on the processing

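With a minimum FPKM of 0.01, 42 members were left (19 in the ovary alone, 14 in both tissues, 9 in the testis alone), with 3 at least 2-fold higher and 6 at least 2-fold lower in the ovary and a median log2 ratio of −0.53. With a minimum of 0.1, 21 were left (11, 4 and 6), with 1 higher and 2 lower. Pseudocounts over every member turned the median to 0.0054 (0.01), 0.00054 (0.1) and 5.4e-05 (1), since members at 0 in 1 tissue then enter. The counts became 19 higher with 0.01, 7 lower with 0.1, and 1 higher and 1 lower with 1. Centring on all rows turned the median to 1.6e-06, a shift that equals the median of all rows. At 4-fold, 4 were higher. With at least 10 lowest reads, 18 members were left (the CHD5 row without reads included), with 7 lower and a median of −0.53. FPKM of at least 0.5 was reached by 5 members. Neighbours numbered 6 within 5 coding sequences and 30 within 30. With whole numbers up to 3 the ratio of library totals was 0.814, from 16 ratios. That search did not include the comparison of multiples, and the cause of the change was not tested. Chosen after seeing the data, lowest reads with that ratio left 4 intervals above 0 and 7 below it. The other 19 of 47 recomputed values, including these intervals and all with symbols summed, were within 1.5 times the reported value. No paired analysis was possible because each group has 1 library and no replicate number, and no replicate could be left out. With 1 bird per library the spread between birds is unknown, and reads were bounded only for members above 0 in both tissues.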
